A study of Homo sapiens with 24 samples.

Results

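The cytosolic ribosomal protein genes are the genes whose products form the ribosome of the cytoplasm. They were chosen by symbol alone: RPL or RPS followed by a number, with the endings that mark X-linked, A-type or L-type copies, together with RPLP0, RPLP1, RPLP2 and RPSA. The rule found 85 of the 58825 genes in the table, of which 46 are main copies of the large subunit, 31 are main copies of the small subunit and 8 are variant paralogs that encode a close relative of a main copy. FAU and RACK1, which also supply ribosomal proteins, fall outside the rule and serve only for comparison. The study used SK-HEP-1, an established human liver tumour line, made to carry CRISPR interference, in which a guide RNA brings a transcriptional repressor to a promoter. There were 4 lines with guides against the long noncoding RNA PURPL (sg2, sg4, sg5 and sg6) and 2 lines with non-targeting guides (NTC1 and NTC2). Each line received Nutlin-3a at 10 µM, which blocks the binding of MDM2 to p53, or the vehicle DMSO, for 6 h, and was harvested 2 times per treatment (harvests 1 and 3). The groups are therefore PURPL guide lines with Nutlin-3a (8 libraries), NTC lines with Nutlin-3a (4 libraries), PURPL guide lines with DMSO (8 libraries) and NTC lines with DMSO (4 libraries). All of them carry the interference system, and whether a line is a clone or a pool of cells is not stated in the sources used here.

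Ribosomal proteins are made in near-equal amounts and are assembled with ribosomal RNA in the nucleolus. Their mRNAs begin with a run of pyrimidines, the TOP motif, through which the mTORC1 pathway and the protein LARP1 govern their translation and stability. When assembly is disturbed, free RPL5 and RPL11 bind MDM2 and free p53 from it, and RPS27L, a relative of RPS27, is known as a direct target gene of p53.

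Library totals ranged from 66379375 to 92116722 counts. One library stood apart: harvest 1 of sg2 with Nutlin-3a, called the divergent library here. In it the genes of the set had a median of 4.39 times their median over the other 23 libraries among the 28 genes of highest coding GC content (53.8% to 63.0%), 1.65 times among 27 genes of middle content and 1.02 times among the 28 of lowest content (40.4% to 47.5%). Its log2 levels over the 83 tested genes climbed by 1.91 for each 10 points of coding GC content, where the 23 other libraries had slopes between -0.18 and 0.55. The main fits leave it out, and values with it are given where they differ. Harvest 3 of sg5 with Nutlin-3a (0.55) and harvest 3 of NTC1 with DMSO (0.38) had the steepest slopes of those kept. PURPL averaged 1.99 CPM (counts scaled to a common library size) in the guide lines with Nutlin-3a and 32.7 CPM in the NTC lines with Nutlin-3a, 0.556 CPM in the guide lines with DMSO and 8.35 CPM in the NTC lines with DMSO. CDKN1A, the p53 target that encodes p21, averaged 1272 CPM in guide lines with Nutlin-3a and 86.1 CPM in guide lines with DMSO. The labels call the cells endothelial, but 9 of 10 endothelial markers, PECAM1, CDH5, VWF and KDR among them, stayed under 1 CPM in every library, and 1, ENG, did not. In these bulk samples fewer cells with a transcript and less of it per cell cannot be told apart.

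The following windows show the transcription starts of variant paralogs and main copies that the results turn on, with RPLP0 for comparison, so that the length of the pyrimidine run at the start can be compared. Each is 60 bases, 5′ to 3′ on the gene's own strand, with 30 bases before the start and 30 from it on, taken from RefSeq annotation of GRCh38.p14. Capitals mark the longest run of C and T that touches the region from 10 bases before the start to 11 bases into the transcript.
RPS27L: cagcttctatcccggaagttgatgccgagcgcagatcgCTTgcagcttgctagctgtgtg
RPS27: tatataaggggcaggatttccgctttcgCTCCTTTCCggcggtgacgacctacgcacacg
RPL7L1: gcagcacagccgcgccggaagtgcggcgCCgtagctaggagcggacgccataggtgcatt
RPL22L1: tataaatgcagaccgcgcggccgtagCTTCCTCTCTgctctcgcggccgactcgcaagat
RPL22: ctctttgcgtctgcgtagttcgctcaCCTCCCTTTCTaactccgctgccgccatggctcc
RPL36AL: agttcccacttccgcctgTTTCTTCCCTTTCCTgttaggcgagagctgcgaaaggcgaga
RPL36A: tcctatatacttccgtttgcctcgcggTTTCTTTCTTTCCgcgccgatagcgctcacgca
RPL39: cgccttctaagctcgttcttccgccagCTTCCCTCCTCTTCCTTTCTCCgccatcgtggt
RPLP0: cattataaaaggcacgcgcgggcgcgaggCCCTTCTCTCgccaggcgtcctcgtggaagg

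The RPS27L window lies at chr15:63157448-63157507 on the minus strand and that of RPS27 at chr1:153990732-153990791 on the plus strand. RPS27L has a run of 3 bases, where RPS27 has 9. RPL7L1 (chr6:42879586-42879645, plus strand) has a run of 2 bases, RPL22L1 (chr3:170870166-170870225, minus strand) has 10 and RPL22 (chr1:6199566-6199625, minus strand) has 11. RPL36AL (chr14:49620597-49620656, minus strand) has 15 and RPL36A (chrX:101390981-101391040, plus strand) has 13. RPL39 (chrX:119791601-119791660, minus strand) has 22 and RPLP0 (chr12:120201082-120201141, minus strand) has 10. The table of starts held 62 main copies and 6 variant paralogs. A run of at least 10 bases stood at the start of 49 of these 62 main copies (79.0%), of 2 of these 6 variant paralogs and of 10.2% of 27305 genes of all kinds. The consensus half-site of p53, searched on both strands over 300 bases, matched in 10 of 62 main copies (16.1%) and in 1 of 6 variant paralogs, RPS27L, against 8.06% of all genes. RPS27 and RPLP0 were among the main copies with a match. A match is a description of the letters and not a site of binding.

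The set took 5.30% ± 0.402 of all counts in PURPL guide lines with Nutlin-3a (SD, n = 7 libraries, 4.82% to 5.92%), 5.07% ± 0.176 in NTC lines with Nutlin-3a (n = 4), 4.62% ± 0.18 in PURPL guide lines with DMSO (n = 8, 4.25% to 4.83%) and 5.02% ± 0.847 in NTC lines with DMSO (n = 4). In the guide lines the Nutlin-3a libraries lay above the DMSO libraries apart from a narrow overlap. In NTC lines with DMSO the shares were 5.13% and 6.16% in NTC1 and 4.55% and 4.24% in NTC2, so that the 2 control lines did not overlap. The divergent library stood at 8.30%. Mitochondrial transcripts moved with treatment too, at 1.22% of counts in guide lines and 1.23% in NTC lines with Nutlin-3a. With DMSO they took 0.96% in guide lines and 0.863% in NTC lines. Of the counts without mitochondrial transcripts, the set took 5.37% in guide lines and 5.14% in NTC lines with Nutlin-3a. With DMSO these shares were 4.66% in guide lines and 5.07% in NTC lines. The part of mitochondrial transcripts in the fold changes was not tested.

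Levels within the set differed widely per length of coding sequence. Counts come from whole transcripts, so the order below holds for coding length only and favours genes with short coding sequences. RPL41 has 75 coding bases in a transcript of 469 bases, and RPL39 has 153 in 401. In NTC lines with DMSO, RPL41, the shortest protein of the set, had the highest level at 10070 CPM per kb of coding sequence, followed by RPL39 at 6561, RPS18 at 3289, RPS24 at 2954 and RPL26 at 2671. The lowest of the tested genes were RPS28 at 52.8 CPM per kb, RPS15 at 80.4, RPL36 at 85.0, RPL26L1 at 104.8 and RPS9 at 158.6. Of these, RPS28, RPS15, RPL36 and RPS9 have a coding GC content of 59.7% to 63.0%. Across the 83 genes the log2 level per kb went down with coding GC content (Pearson r = -0.60, across genes that share libraries and are not independent). RPL10L held no count in any library and RPL3L, whose product is known from muscle, held 1 count in 1 library. These variants were not tested.

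The genes were stable in most libraries. The ratio of the highest to the lowest CPM over 23 libraries was 1.16 for RPL7L1, 1.17 for RPL5, 1.17 for RPL7 and 1.18 for RPL22. The widest ranges belonged to RPS28 (4.09-fold, 5.55 to 22.7 CPM), RPL36 (3.60-fold, 14.3 to 51.4 CPM) and RPS15 (3.38-fold, 19.0 to 64.4 CPM), all of them rich in GC. In the divergent library RPS28 stood at 33.9 times, RPL36 at 16.4 times and RPS15 at 12.9 times the median of the others.

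**Figure D1:**
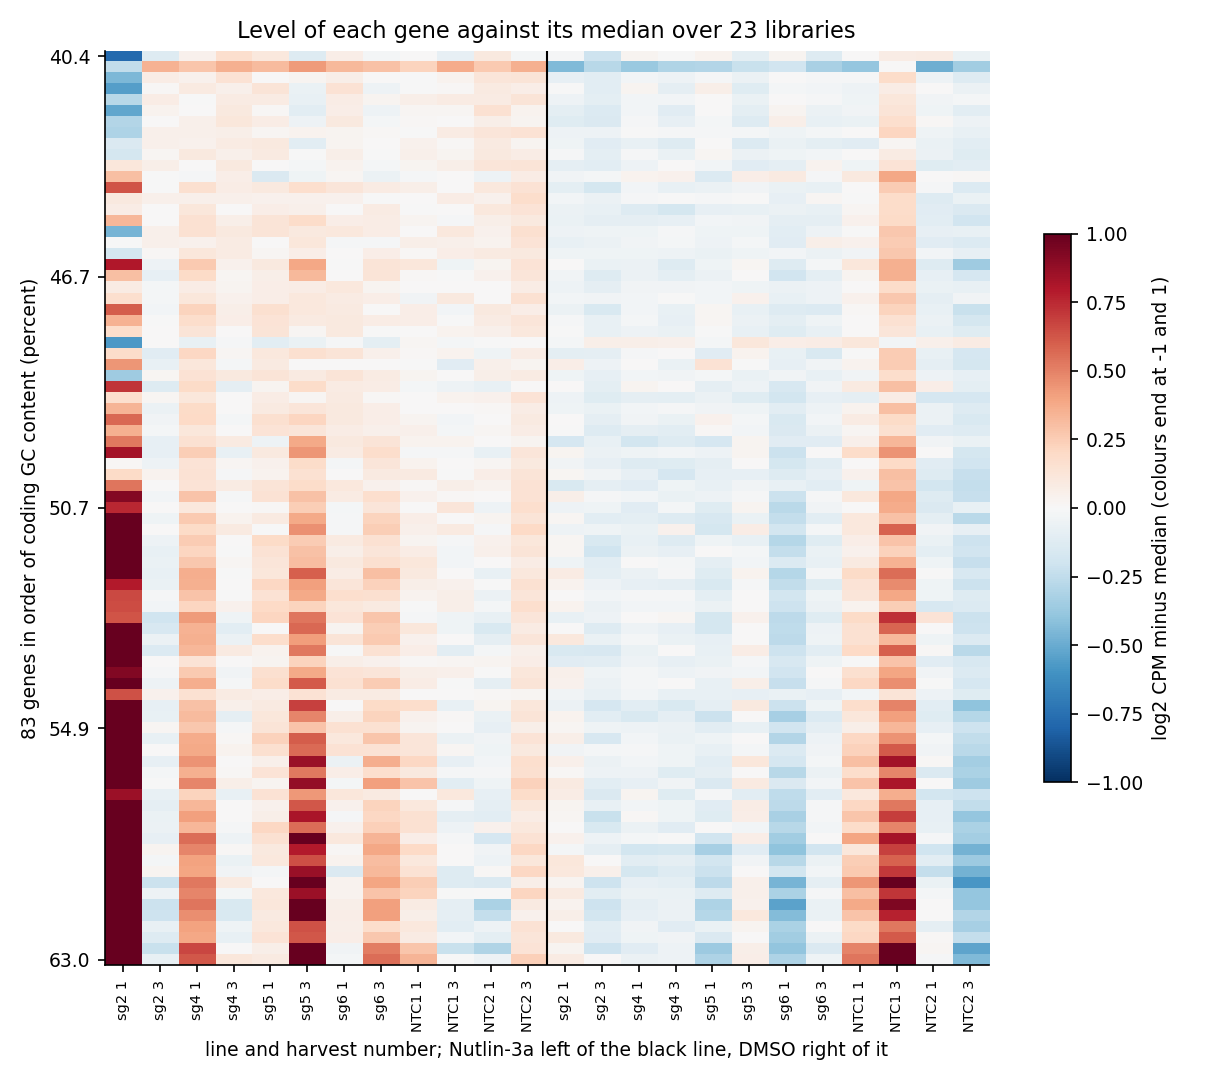
Each row is 1 of 83 tested genes, from the lowest coding GC content at the top (40.4%) to the highest at the bottom (63.0%), and each column is 1 library. Colour gives log2 CPM minus the gene's median over 23 libraries. The divergent library, the first column, is high in the lower rows, harvest 3 of sg5 with Nutlin-3a and harvest 3 of NTC1 with DMSO are high there to a lesser degree, and 1 row near the top, RPS27L, follows treatment.

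RPS27L (ENSG00000185088.14, hg38 chromosome 15, 63125872 to 63158021, minus strand) was the gene of the set with the clearest response to Nutlin-3a. In PURPL guide lines with Nutlin-3a its lowest, median and highest values were 159.7, 165 and 178 CPM (n = 7). In NTC lines with Nutlin-3a it had 154 and 171 CPM in NTC1 and 158 and 169 CPM in NTC2. In PURPL guide lines with DMSO the lowest, median and highest values were 97.4, 107 and 115 CPM (n = 8), and in NTC lines with DMSO it had 101 and 132 CPM in NTC1 and 94.3 and 104 CPM in NTC2. All 11 Nutlin-3a libraries thus lay above all 12 DMSO libraries. RPS27L rose by 0.62 on the log2 scale in the guide lines (SE 0.06, edgeR adjusted p = 1.6e-07) and by 0.56 in the NTC lines (SE 0.08, edgeR adjusted p = 3.31e-05). The rise was seen in each of the 6 lines, between 0.48 in NTC1 and 0.72 in NTC2. The divergent library, although labelled as Nutlin-3a, held 111 CPM of RPS27L, within the DMSO range. The same library held 2971 CPM of CDKN1A (the 7 other guide libraries with Nutlin-3a had 1091 to 1544 CPM, and the 8 guide libraries with DMSO 75.3 to 94.4 CPM), 1646 CPM of MDM2 (against 3424 to 5139 and 418 to 489 CPM in the same groups) and 0.743 CPM of PURPL (against 1.42 to 2.90 and 0.273 to 0.868 CPM). With it included the log2 change in the guide lines was 0.57.

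RPS27 (ENSG00000177954.13, hg38 chromosome 1, 153990755 to 153992155, plus strand), the zinc-finger protein of the small subunit of which RPS27L is a near copy, moved less than RPS27L. Its lowest, median and highest values were 467, 503 and 531 CPM in PURPL guide lines with Nutlin-3a and 421, 441 and 456 CPM in PURPL guide lines with DMSO. NTC lines with Nutlin-3a had 472, 486, 479 and 515 CPM and NTC lines with DMSO had 453, 569.8, 412 and 396 CPM. RPS27 rose by 0.16 in the guide lines (SE 0.05, edgeR adjusted p = 0.0113) and its change was 0.07 in the NTC lines (SE 0.06, edgeR adjusted p = 0.465). Both genes have 252 coding bases, but counts also depend on their untranslated parts, so the ratio below is one of counts and not of molecules.

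**Figure D2:**
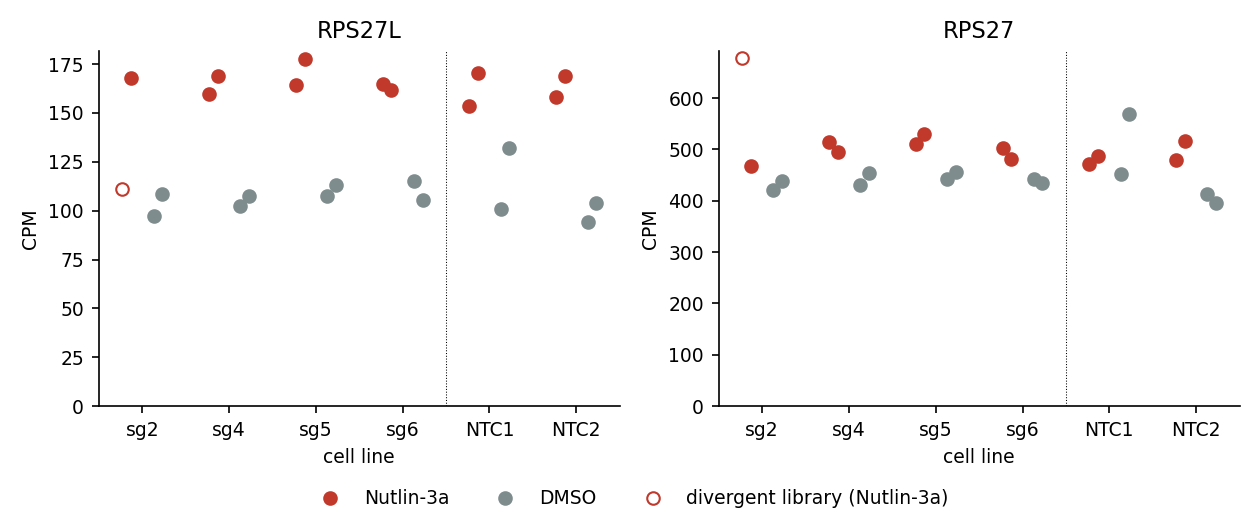
CPM of RPS27L (left) and RPS27 (right) in every library, by line, with Nutlin-3a in red left of DMSO in grey. The open circle is the divergent library. RPS27L lies between 154 and 178 CPM in the 11 other Nutlin-3a libraries and between 94.3 and 132 CPM in the 12 DMSO libraries.

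The question for each variant paralog was whether its level moved relative to its main copy, since a ratio inside a library does not depend on library scaling. RPS27L stood at 33.3% ± 1.57 of the RPS27 count in PURPL guide lines with Nutlin-3a (n = 7) and at 33.4% ± 1.18 in NTC lines with Nutlin-3a (n = 4), against 24.4% ± 0.898 in PURPL guide lines with DMSO (n = 8) and 23.6% ± 1.77 in NTC lines with DMSO (n = 4). The ratio was 1.39-fold higher with Nutlin-3a (log2 change 0.48, SD over lines 0.08) and rose in 6 of 6 lines. The exact sign-flip permutation test over 6 lines gave p = 0.03125 (two-sided), the smallest it can give, and 0.0375 after Benjamini-Hochberg adjustment over the 6 pairs measured. The adjusted value rests on all pairs together, because RPL22L1, RPL36AL, RPL39L and RPL7L1 stood at the same smallest p. Without any 1 line the log2 change was 0.454 to 0.491, and 5 lines can reach no p under 0.0625. In the divergent library the ratio was 16.4%. With all 24 libraries the log2 change was 0.38 and the adjusted p of the exact test 0.0469. That adjusted p also depends on RPL39L/RPL39, whose exact permutation p was then 0.3125.

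Of the other measured variants, 4 had a ratio to their main copy that fell in 6 of 6 lines. Their own mean CPM was higher with Nutlin-3a in 4 of 6 lines for RPL22L1, 3 for RPL36AL, 2 for RPL39L and 0 for RPL7L1. The main copies were higher in 6 lines for RPL22 and RPL7 and in 5 lines for RPL36A and RPL39. RPL7L1, a relative of RPL7 known from the processing of pre-ribosomes, stood at 26.9% ± 1.06 of the RPL7 count in guide lines with Nutlin-3a and 30.3% ± 1.36 in guide lines with DMSO, and at 26.9% ± 0.696 in NTC lines with Nutlin-3a and 29.7% ± 2.55 in NTC lines with DMSO. Its log2 ratio fell by 0.16. RPL39L, a variant known from the testis, stood at 2.42% ± 0.0593 of RPL39 in guide lines with Nutlin-3a and 2.63% ± 0.139 in guide lines with DMSO, and its log2 ratio fell by 0.15. RPL36AL fell by 0.12 relative to RPL36A, with 27.2% ± 0.732 in guide lines with Nutlin-3a and 30.2% ± 0.905 in guide lines with DMSO. RPL22L1, which is known to take the place of RPL22 when that gene is lost, fell by 0.09 relative to RPL22, with 46.4% ± 2.64 in guide lines with Nutlin-3a and 48.0% ± 2.40 in guide lines with DMSO. Each of these 4 falls had an exact two-sided permutation p of 0.03125, the smallest possible, and an adjusted p of 0.0375 over 6 pairs. In harvest 3 alone RPL7L1/RPL7 was above 0 in NTC1 (0.04) and RPL22L1/RPL22 in sg6 (0.01), and none of the 4 falls passed in either harvest alone (adjusted p of the exact test 0.0625 to 0.075). Harvest 1 alone holds 5 lines without the divergent library, so no exact p there can be under 0.0625. With all 24 libraries the call was lost for RPL39L/RPL39 (adjusted p of the exact test 0.3125), whose ratio was 4.27% in the divergent library against 2.26% to 2.93% in the others.

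RPL26L1 did not follow either pattern. Its ratio to RPL26 had a log2 change of 0.05 with Nutlin-3a (exact permutation p = 0.5), higher in sg4, sg5 and sg6 (0.18 to 0.22) and lower in sg2, NTC1 and NTC2 (-0.14 to -0.05). Between guide and NTC lines no ratio passed in either treatment. For RPS27L/RPS27 the log2 difference of guide minus NTC lines was 0.01 with Nutlin-3a (exact permutation p = 0.933) and 0.05 with DMSO (exact permutation p = 0.333), in a design of 15 splits that allows no p under 0.0667. RPL26L1/RPL26 in DMSO was at that limit, 0.17 lower on the log2 scale in guide lines, at 3.48% ± 0.186 in guide lines against 3.91% ± 0.166 in NTC lines, with an adjusted p of 0.2 for the exact test.

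**Figure D3:**
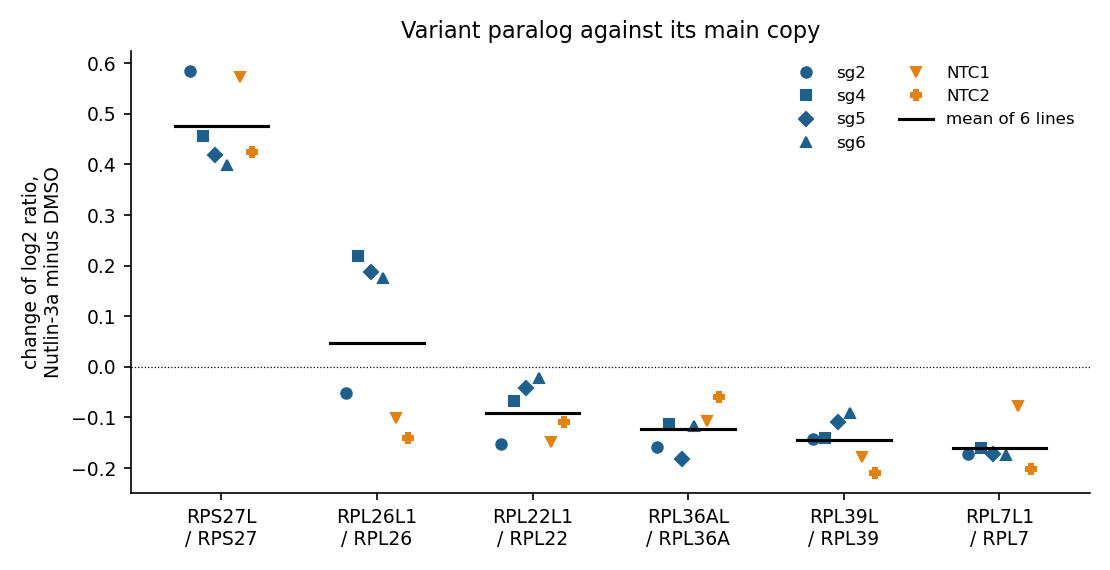
Change of the log2 ratio of variant paralog to main copy, Nutlin-3a minus DMSO, in each of 6 lines (blue, PURPL guide lines; orange, NTC lines), with the mean as a black bar. RPS27L/RPS27 lies above 0 in 6 lines, RPL26L1/RPL26 on both sides of 0, and the 4 other pairs below 0 in 6 lines.

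In the PURPL guide lines, 34 of 83 tested genes rose with Nutlin-3a (41.0%, against 15.9% of the 16697 genes tested) and 1 fell (against 22.7% of the genes tested). The median log2 fold change of the set was 0.15, against -0.00 over all genes tested, and 80 of the 83 values were above 0. The genes that rose were 21 of 46 main copies of the large subunit, 11 of 31 of the small subunit and 2 of 6 variant paralogs. After RPS27L the largest called changes were those of RPS19 (0.42, SE 0.12), a small-subunit protein mutated in Diamond-Blackfan anaemia, RPL18 (0.25, SE 0.10) and RPL3 (0.25, SE 0.08), which lies near the peptidyl transferase centre. RPL10, which joins the large subunit late in its maturation, rose by 0.24, RPL13A by 0.23, RPL37A by 0.23 and RPL29 by 0.22, with edgeR adjusted p of 0.0097 to 0.0471 for these 7 genes. RPS19 had 209.2 CPM at its lowest, 222 CPM at its median and 359.9 CPM at its highest in guide lines with Nutlin-3a, and 158, 184 and 206 CPM in guide lines with DMSO, so that the groups did not overlap. RPL7L1 was the gene called down (-0.11, SE 0.03, edgeR adjusted p = 0.0189), and that call was lost with RLE size factors (-0.08, adjusted p = 0.119), with the GC trend removed (-0.03, adjusted p = 0.434) and with all 24 libraries (adjusted p = 0.0803).

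The number of genes called in the guide lines depended on single libraries and on the processing. Leaving out 1 library at a time gave 14 to 64 genes up (while 13.0% to 19.3% of all genes tested were called up): 64 without harvest 3 of sg2, 14 and 54 without harvest 1 and 3 of sg4, 59 and 52 without harvest 1 and 3 of sg5 and 16 without harvest 3 of sg6, all with Nutlin-3a, and 15, 18, 21 and 16 without the DMSO libraries sg2 harvest 3, sg4 harvest 3, sg5 harvest 1 and sg6 harvest 1. The median stayed between 0.12 and 0.20 over these fits. All 24 libraries gave 54 genes up (17.7% of all genes tested) and a median of 0.28. The log2 fold change went up with coding GC content over the 83 genes (Pearson r = 0.65, across genes, n = 83), with a median of 0.24 in the 28 genes of highest GC content and 0.08 in the 28 of lowest. After correction of every library for its trend on the GC content of transcripts, r was 0.22, the medians of these groups were 0.18 and 0.15, and 73 of 83 genes rose (against 23.0% of the 16697 genes tested), RPS27L by 0.71.

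In the NTC lines RPS27L was the 1 gene of 83 that rose (1.20%, against 8.88% of the genes tested) and none fell (against 15.9% of the genes tested). At an unadjusted edgeR p under 0.05 there were 3 genes in either direction, and DESeq2 called 4 up and 0 down. The median log2 fold change was -0.03, against -0.06 over all genes tested. With RLE size factors the genome-wide calls divided into 1859 up and 1904 down, and with the GC trend removed into 2413 up and 2568 down, against 1482 up and 2655 down with TMM. Apart from RPS27L the values ran from -0.38 (RPS28, SE 0.27) to 0.11. They went down with coding GC content (Pearson r = -0.62 across 83 genes, and -0.27 with the GC trend removed). For 76 of the 83 genes the 95% interval of the change lay within 1.5-fold in either direction.

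The 2 NTC lines moved apart. The median log2 ratio of Nutlin-3a to DMSO over the 83 genes was -0.18 in NTC1, with 4 genes above 0, and 0.18 in NTC2, with 81 above 0. In the guide lines it was 0.01 in sg2 (47 above 0), of which 1 Nutlin-3a library was kept, 0.19 in sg4 (81), 0.25 in sg5 (80) and 0.22 in sg6 (81). NTC2 thus stood with sg4, sg5 and sg6, and NTC1 held the library of the highest share of counts in DMSO. Without harvest 3 of NTC1 in DMSO the NTC fit gave 3 genes up and a median of 0.04, and without harvest 1 of NTC1 in DMSO it gave 3 genes down and a median of -0.10.

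**Figure D4:**
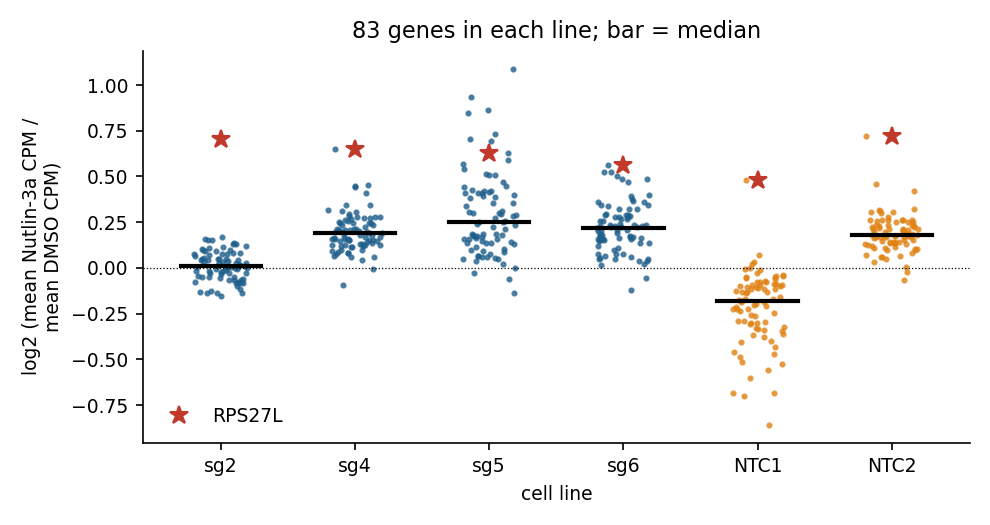
Log2 ratio of mean CPM with Nutlin-3a to mean CPM with DMSO for 83 genes in each line (blue, PURPL guide lines; orange, NTC lines), without the divergent library. Bars are medians (0.01 in sg2, 0.19 in sg4, 0.25 in sg5, 0.22 in sg6, -0.18 in NTC1 and 0.18 in NTC2) and red stars mark RPS27L, which is above 0 in every line.

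**Figure D5:**
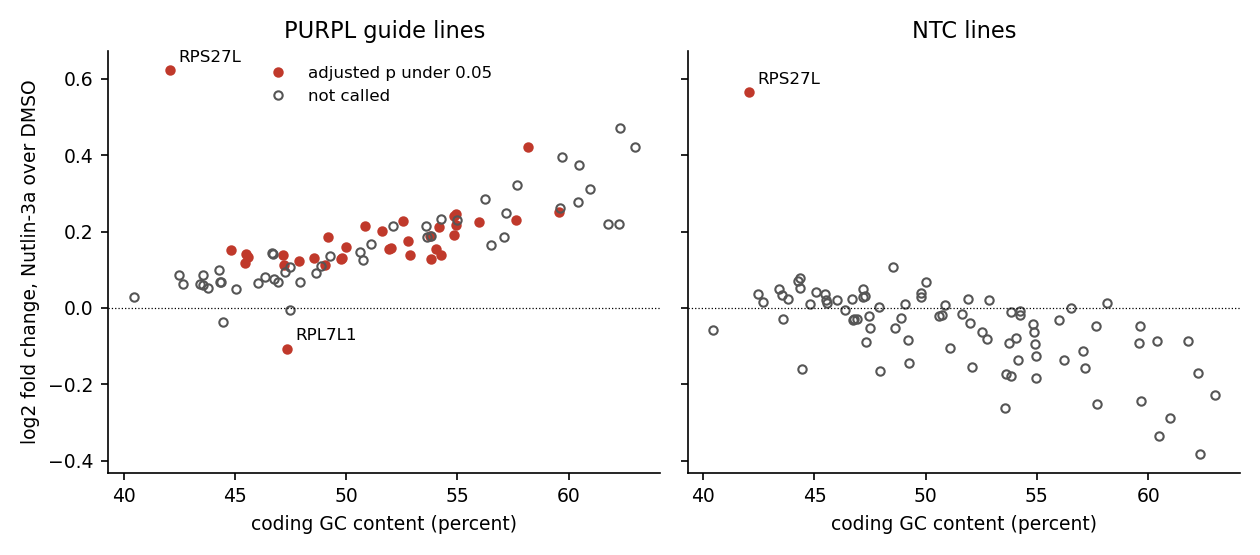
Log2 fold change with Nutlin-3a against coding GC content for 83 genes in PURPL guide lines (left) and NTC lines (right). Filled red points have an edgeR adjusted p under 0.05 (35 in the guide lines, 1 in the NTC lines). The values go up with GC content on the left and down on the right, with RPS27L apart from both trends.

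Of 9 genes whose proteins are known to bind MDM2, 3 rose in the guide lines. Over the set 34 of 83 genes rose there, and over all genes tested 15.9%. The 3 genes were RPS3 (0.15, SE 0.06, edgeR adjusted p = 0.0451), RPS20 (0.15, SE 0.04, edgeR adjusted p = 0.00969) and RPL23 (0.11, SE 0.04, edgeR adjusted p = 0.0277). None of the 9 was called in the NTC lines (against 8.88% up and 15.9% down of all genes tested). Their values there ran from -0.17 (RPS7) to 0.05 (RPL5). RPL5 had 1793, 1863 and 1926 CPM at its lowest, median and highest in guide lines with Nutlin-3a and 1674, 1751 and 1822 CPM in guide lines with DMSO (log2 fold change 0.07, SE 0.03, edgeR adjusted p = 0.118). RPL11 had 596, 608 and 716 CPM in guide lines with Nutlin-3a and 501, 584 and 613 CPM in guide lines with DMSO (0.13, SE 0.06, edgeR adjusted p = 0.137). For RPL26, RPS7, RPS14 and RPS27A the values in the guide lines were 0.05, 0.07, 0.17 and 0.05, none of them called. With the GC trend removed 8 of the 9 genes rose in the guide lines, where 73 of all 83 genes of the set and 23% of all genes tested did. None of the 9 passed in the NTC lines. Among the proteins of the stalk, where elongation factors bind, RPLP0 rose in the guide lines (0.21, SE 0.08, edgeR adjusted p = 0.0397), while RPLP1 (0.23, SE 0.13) and RPLP2 (0.29, SE 0.13) did not pass. RPSA, which is also known as a laminin receptor, rose by 0.17 (SE 0.06, edgeR adjusted p = 0.027).

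Between PURPL guide lines and NTC lines no gene of the set was called. In DMSO 0 of 83 passed (against 0% of 16649 genes up and 0.00601% down), although all 83 values were below 0, with a median of -0.12 against -0.01 over all genes and 4 at an unadjusted p under 0.05. The smallest p belonged to RPS29 (-0.34, SE 0.13, edgeR adjusted p = 0.825), RPL26L1 (-0.21, SE 0.08) and RPS28 (-0.62, SE 0.26). This difference rested on 1 control line. Without NTC1 the median was 0.06, and without NTC2, which leaves NTC1 as the only control and assumes that it varies like the guide lines, 70 of the 83 genes were called down (84.3%, against 18.9% of 17167 genes tested in that fit) and the median was -0.30. With the GC trend removed all 83 values were again below 0 (median -0.12) and 0 passed.

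With Nutlin-3a 0 of 83 passed (against 0% up and 0.00596% down of 16769 genes), the median was 0.05 and 0 had an unadjusted p under 0.05. RPL15 (0.08, SE 0.04) had one of the smallest p among the values above 0, and RPS24 (-0.06, SE 0.04), RPL7 (-0.05, SE 0.04) and RPL7L1 (-0.05, SE 0.04) had the smallest among those below 0, with edgeR adjusted p of 0.828 to 0.829. The 95% interval of the difference lay within 1.5-fold in either direction for 77 of the 83 genes with Nutlin-3a and for 67 with DMSO. With the divergent library the median with Nutlin-3a was 0.20.

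The difference of the responses, guide minus NTC lines, was not called for any of 83 genes (0% of 17106 genes were called in either direction). Its median was 0.14, against -0.01 over all genes, with 78 values above 0 and 8 at an unadjusted edgeR p under 0.05. RPL26L1 (0.25, SE 0.10), RPS9 (0.70, SE 0.27) and RPL8 (0.59, SE 0.23) had the smallest p, each with an edgeR adjusted p of 0.612. RPL7L1 (-0.04, SE 0.07), RPS24 (-0.03, SE 0.09) and RPL26 (-0.02, SE 0.09) had the smallest p among the values below 0. These values share the DMSO libraries with the comparison above: without NTC1 the median was -0.03, and without NTC2 it was 0.36 with 40 of 83 genes called up (48.2%, against 8.46% of 17594 genes tested in that fit). DESeq2 called 0 genes of the set in each of the 3 comparisons between guide and NTC lines. The responses of the set in guide lines and in NTC lines were therefore not shown to differ.

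Other genes of the same pathway were counted against all genes tested, of which 15.9% rose and 22.7% fell in the guide lines and 8.88% rose and 15.9% fell in the NTC lines. Of 25 factors that assemble ribosomal proteins or carry them and the subunits across the nuclear envelope, 15 fell and 1 rose in the guide lines (median -0.21) and 13 fell and 1 rose in the NTC lines (median -0.21). TSR1, a maturation factor of the small subunit, fell by 0.41 in guide lines and by 0.34 in NTC lines. The importin KPNB1 fell by 0.45 in guide lines and by 0.35 in NTC lines, and the exportin XPO1 fell by 0.45 in guide lines. The kinase RIOK3, of small-subunit maturation, rose by 0.39 in NTC lines. Of 24 other genes with TOP starts, 6 rose and 2 fell in the guide lines (median 0.05), among them the elongation factor EEF1A1 (0.14, SE 0.03) upward and TOMM20 (-0.19, SE 0.04) downward, and none was called in the NTC lines (median -0.01). Among 14 host RNAs of snoRNAs, 3 rose and 3 fell in the guide lines and 0 rose and 3 fell in the NTC lines: SNHG1 fell by 0.67 in guide lines and by 0.66 in NTC lines, and SNHG12 by 0.58 in guide lines and by 0.60 in NTC lines. Of 20 regulators of TOP mRNAs 3 rose and 6 fell in the guide lines and 3 rose and 4 fell in the NTC lines. SESN1 and SESN2, p53 targets that restrain mTORC1, rose by 2.69 and 1.95 in guide lines and by 2.73 and 1.61 in NTC lines. MYC, the transcription factor known to drive ribosomal protein genes, fell by 0.85 in guide lines and by 0.92 in NTC lines. Outside the rule, FAU rose in the guide lines (0.32, SE 0.12, edgeR adjusted p = 0.0359), and neither FAU nor RACK1 was called in the NTC lines.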

How the data were processed

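Poly(A) RNA of SK-HEP-1 interference lines was sequenced with a strand-specific kit, per the labels' protocols. The authors deposited 1 table of expected counts per gene, estimated with RSEM; cutadapt, STAR, RSEM, DESeq2 and the build hg38 are named in the submitters' processing notes, and the strand setting is not given in the sources used here. RSEM divides reads shared with pseudogenes or read-through genes by estimate, which leaves genes with close copies uncertain. Values that were not whole (5.60% to 7.16% per library) were rounded. The 45 pseudoautosomal Y rows (0.0222% of counts) were added to their X copies, and all 24 sample columns were used.

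Genes were filtered with filterByExpr (minimum count 10), scaled with TMM and tested with edgeR 4.0.16 (R 4.3.3, quasi-likelihood test, robust), with Benjamini-Hochberg adjustment over all genes and a threshold of 0.05. Responses to Nutlin-3a came from 1 model of the 12 means of line and treatment over 23 libraries, and comparisons of guide with NTC lines from the sums of each line's harvests (4 lines against 2). The sum of sg2 with Nutlin-3a holds 1 harvest. P-values of the responses thus rest on how far harvests of 1 line differ. CPM use TMM factors over 24 libraries. Coding length and GC content come from the principal coding sequence of GENCODE, transcript GC content for the GC correction from the shortest consensus transcript or else the longest one. Ratios of paralogs were tested by exact permutation over lines in Python 3.11.15. Named were the variant paralogs and their main copies, the MDM2-binding, stalk and RPSA genes, the 8 largest called changes each way with Nutlin-3a, the 3 smallest p each way between guide and NTC lines, the 5 highest and 5 lowest levels, the 3 widest ranges, and up to 3 called genes of each other list; a few genes that this rule names are not reported here. The gene set, the lists and the choice to leave out the divergent library were made with earlier results of these data known.

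No 2 libraries were duplicates: the closest pair differed by 3.19 times the chi-square median that counting noise gives. On simulated data, 1.5-fold changes were recovered in 47.0% of cases for the NTC response (16348 genes) and 69.0% for the guide-line response (16355 genes). Alternatives were RLE size factors, TMM without the set, no filter, 1 CPM, DESeq2 1.42.0, all 24 libraries, GC correction, a harvest block, only the libraries compared, line sums and each library or line left out.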

Additional observations from a re-analysis of the deposited data

Results flagged for a closer look

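Flags mark a library whose gap to its nearest neighbour in the group is large for the group's range, at a level where chance flags about 1 group in 20; 50 groups of values were examined and 8 were flagged. Of these flags, 7 belong to the divergent library among the 8 PURPL guide libraries with Nutlin-3a. It held 8.30% of its counts in the gene set, where the next library held 5.92%. Its slope on coding GC content was 1.91 log2 units for each 10 points, with the next at 0.55. RPS27L stood at 111 CPM in it, with the next lowest at 159.7 CPM, and RPL7L1 at 376 CPM, with the next lowest at 522 CPM. RPS27L was at 16.4% of RPS27 (next 31.0%), RPL22L1 at 30.2% of RPL22 (next 41.1%) and RPL39L at 4.27% of RPL39 (next 2.48%). In the same library CDKN1A, at 2971 CPM, lay above the 1091 to 1544 CPM of the 7 other guide libraries with Nutlin-3a. MDM2, at 1646 CPM, lay between the 3424 to 5139 CPM of those libraries and the 418 to 489 CPM of the 8 guide libraries with DMSO. PURPL, at 0.743 CPM, lay below the 1.42 to 2.90 CPM of those Nutlin-3a libraries and within the 0.273 to 0.868 CPM of the DMSO libraries.

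The remaining flag, among the 7 guide libraries that were kept, was harvest 1 of sg5 with Nutlin-3a, where RPL39L stood at 2.30% of RPL39, below the next lowest at 2.41%.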

How the results depend on the processing

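The count of genes that rose in PURPL guide lines with Nutlin-3a depended most on the settings. It was 34 in the main fit (with 15.9% of all genes tested called up), 61 with RLE size factors (19.2%), 63 without a filter (11.7%), 76 with a filter at 1 CPM (26.7%), 69 with DESeq2 (19.1%), 73 with the GC trend removed (23.0%), 54 with all 24 libraries (17.7%), 63 with line sums (23.2%) and, chosen after the data were seen, 76 with all 24 libraries and the GC trend removed (23.4%). In each of these 8 fits, and with TMM factors computed without the set, 0 genes fell, so the call of RPL7L1 was lost. The median change there was 0.28 with all 24 libraries and 0.283 with the GC trend also removed, against 0.15. Leaving out 1 library at a time gave 14 to 64 genes up (13% to 19.3% of all genes tested), 0 to 1 down (19% to 24%) and medians of 0.119 to 0.204. The 64 genes and the median of 0.204 came from the fit in which sg2 kept DMSO libraries but no Nutlin-3a library. In NTC lines the count up was 1 in the main fit (with 8.88% of all genes tested called up). It was 2 with RLE size factors (11.1%), with TMM without the set (10.3%) and with only the libraries compared (11.3%). It was 6 with a filter at 1 CPM (15.4%) and 4 with DESeq2 (11.8%). Chosen after the data were seen, the fit without harvest 3 of NTC1 with DMSO and harvest 3 of sg5 with Nutlin-3a gave 4 (9.67%). Without a filter 5 genes fell (with 7.78% of all genes tested called down). Leaving out 1 library gave 1 to 3 up (6.6% to 12% of all genes tested), 0 to 3 down (11.9% to 16.7%) and medians of -0.10 to 0.04. The median was 0.03 with DESeq2 and with the GC trend removed. Between guide and NTC lines with Nutlin-3a the median was 0.20 with all 24 libraries, and 0.0163 to 0.0983 without 1 line. In DMSO, 0 to 70 genes fell and the median was -0.30 to 0.06 without 1 line. The difference of responses gave 0 to 40 genes up and medians of -0.0285 to 0.364. In both, the extremes are the fits without NTC2 and without NTC1.

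The RPS27L/RPS27 ratio changed by 0.454 to 0.491 without 1 line, where no p can pass. Labels do not say that a harvest number marks a shared day. The harvest difference correlated between groups with a median r of 0.203 (-0.675 to 0.715, 32 of 55 pairs over 0.1). These values do not settle whether the numbers pair the samples, and the main fits did not pair by them. With a replicate block for the harvest number, 34 genes rose (16.7% of all genes tested) and 1 fell (23.6%) in guide lines (median 0.144). With the block 1 rose in NTC lines (9.89% of all genes tested, median -0.03), and 0 passed between guide and NTC lines (medians -0.12 in DMSO, 0.06 with Nutlin-3a and 0.16 for the difference). Within harvest 3 alone the ratio changed by 0.479 (adjusted p of the exact test 0.0625) and within harvest 1 alone by 0.44 (0.075). Harvest 1 alone holds 5 lines without the divergent library, where no exact p can be under 0.0625.

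RPS27L rose in both kinds of line in every fit across genes that was run. The lowest tested gene averaged 10.9 CPM in NTC lines with DMSO. In the comparisons of guide with NTC lines 1.5-fold changes were recovered in 62.0% (DMSO), 46.0% (Nutlin-3a) and 41.0% (difference) of simulated cases. The simulated lines differed only by the spread between harvests. These rates therefore leave out differences between lines, on which the tests of line sums rest.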

Other observations

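The mitochondrial ribosomal proteins, which serve the separate ribosome of mitochondria, were also followed. Of 78 genes 8 rose and 11 fell in PURPL guide lines with Nutlin-3a (median -0.00) and 2 rose and 14 fell in NTC lines (median -0.14). Over all genes tested 15.9% rose and 22.7% fell in guide lines, and 8.88% rose and 15.9% fell in NTC lines. MRPL39 rose by 0.30 in guide lines (SE 0.04, edgeR adjusted p = 4.1e-06) and by 0.32 in NTC lines (SE 0.05, edgeR adjusted p = 0.000104). MRPL49 rose by 0.62 in guide lines, MRPL35 fell by 0.24 there, and MRPL46 and MRPL17 fell by 0.36 and 0.50 in NTC lines. Of 1148 pseudogenes of cytosolic ribosomal proteins 94 were tested, of which 7 rose and 0 fell in guide lines and 2 rose and 2 fell in NTC lines. RPL23AP82 rose by 0.71 in guide lines (SE 0.06) and by 0.50 in NTC lines (SE 0.08). The pseudogenes together took 0.26% of counts in guide lines with Nutlin-3a, 0.232% in NTC lines with Nutlin-3a, 0.217% in guide lines with DMSO and 0.245% in NTC lines with DMSO.

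Of 10 transcripts that report on RNA quality, 5 rose with Nutlin-3a in guide lines (against 15.9% of all genes tested) and 6 in NTC lines (against 8.88%). NEAT1 rose by 1.24 in guide lines and by 1.37 in NTC lines. NEAT1 is also known as a p53 target.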
